A study of Mus musculus with 6 samples.

Results

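Expression of 8 genes that build or carry the glycans read by selectins and galectins was described in mouse Th17 cells. They were the branching enzymes Gcnt1, Gcnt2 and Mgat5, the fucosyltransferase Fut7, the sialyltransferases St3gal4, St3gal6 and St6gal1, and the selectin ligand protein Selplg. The genes were chosen by name, and all 8 were found by symbol among the 39179 gene identifiers of the count tables. The choice was made with results of the same comparison known, in which Gcnt2 had stood among the genes with the smallest p-values. The differences of the 8 genes are therefore given as descriptions, without a p-value for any of them, and no threshold separated the chosen genes from others. Where those past a threshold are counted or named, nothing is read from it.

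Naive CD4+ T cells from the spleens of C57BL/6 mice were cultured for 5 days under Th17 conditions, and mRNA was sequenced in 6 libraries. All carried the IL17a/hCD2, Ifng/Thy1.1 and Foxp3/GFP reporter alleles, in which surface or fluorescent proteins mark cells that transcribe Il17a, Ifng or Foxp3. The cultures held 5 µg/mL of soluble anti-CD3, irradiated splenocytes depleted of CD4+ cells, 20 ng/mL of IL6, 2.5 ng/mL of TgfB, and antibodies to Ifng and IL4 at 10 µg/mL each. In the desIgf1 group (n = 3) the labels add desIgf1, a truncated form of insulin-like growth factor 1 that binds poorly to its binding proteins, and the descriptions of the control group (n = 3) do not name it. The treatment text of every library, the controls included, lists desIgf1 at 30 ng/mL, so the grouping rests on the titles and descriptions. Cells positive for hCD2 and negative for Thy1.1 and GFP were sorted before RNA extraction, so each library is a bulk measure of IL17a reporter-positive cells. The labels do not say whether the libraries of a group came from separate cultures or animals, and p-values then measure only the spread between these libraries.

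Selectins are adhesion receptors that slow leukocytes on vessel walls by binding fucosylated and sialylated glycans, chief among them sialyl Lewis x on branched O-glycans of PSGL-1, the protein encoded by Selplg. Effector T cells acquire this binding when enzymes of the Golgi branch, sialylate and fucosylate those O-glycans. Galectins bind galactose-containing chains, and their binding to T cells depends on the branching of N- and O-glycans. For some galectins, binding is blocked where sialic acid of the kind added by St6gal1 caps the chain. Gcnt1 starts the core 2 branch of O-glycans, and Gcnt2 makes the I branch of poly-N-acetyllactosamine chains. Mgat5 adds a branch of complex N-glycans on which galectins cross-link receptors.

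Of the 8 genes, Gcnt2 differed most between the groups and is annotated with alternative first exons, so its sequences are shown here. In GENCODE M21 (GRCm38), Gcnt2 lies on the plus strand at chr13:40859754-40960892 with 6 transcripts, of which 3 have a complete coding sequence of 1203 bases. Each of the 3 begins in a first coding exon of its own with 919 coding bases, and they share the last 284 coding bases. Aligned without gaps, the first coding exons were identical at 63.0% to 67.9% of bases. The first 60 coding bases of each follow, 5′ to 3′, with capitals at bases that differ from coding start 1, which were 32 in coding start 2 and 38 in coding start 3.
Gcnt2 coding start 1, chr13:40860355-40860414, plus strand: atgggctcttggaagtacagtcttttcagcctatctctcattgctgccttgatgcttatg
Gcnt2 coding start 2, chr13:40887367-40887426, plus strand: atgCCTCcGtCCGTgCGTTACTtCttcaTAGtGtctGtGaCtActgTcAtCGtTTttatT
Gcnt2 coding start 3, chr13:40917883-40917942, plus strand: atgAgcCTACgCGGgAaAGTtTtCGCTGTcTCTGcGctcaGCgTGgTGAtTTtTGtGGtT
The deposited counts are per gene, so a value for Gcnt2 sums transcripts from these starts and cannot be divided among them.

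The RefSeq promoter table (GRCm38.p6) held 15 windows for 7 of the 8 genes, with 3 start sites for Gcnt2, and none for Selplg. The 250 bases before each start were searched on both strands for TGTTTAC (FOXO core), ACGTG and GCGTG (hypoxia response cores), AGGTCA (ROR site), TTCNNNGAA (STAT palindrome) and TGANTCA (AP-1). Matches to different motifs could overlap and were counted separately. Because the GENCODE exon of the third start site begins upstream of the RefSeq one, the 200 bases from 250 to 51 bases before each RefSeq start are shown, with motif matches in capitals.
Gcnt2 start site 1, chr13:40859518-40859717, plus strand: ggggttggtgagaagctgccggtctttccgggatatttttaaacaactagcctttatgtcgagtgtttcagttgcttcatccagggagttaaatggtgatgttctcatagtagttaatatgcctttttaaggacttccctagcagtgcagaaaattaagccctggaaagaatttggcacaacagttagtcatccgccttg
Gcnt2 start site 2, chr13:40886508-40886707, plus strand: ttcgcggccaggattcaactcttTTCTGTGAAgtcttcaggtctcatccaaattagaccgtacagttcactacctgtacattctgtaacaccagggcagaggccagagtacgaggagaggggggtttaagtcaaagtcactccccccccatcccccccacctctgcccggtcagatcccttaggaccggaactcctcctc
Gcnt2 start site 3, chr13:40917384-40917583, plus strand: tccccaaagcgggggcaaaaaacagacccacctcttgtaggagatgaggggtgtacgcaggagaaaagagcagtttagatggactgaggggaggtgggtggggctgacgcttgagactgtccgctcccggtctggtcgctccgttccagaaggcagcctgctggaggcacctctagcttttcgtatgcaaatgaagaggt
The single match in the 3 Gcnt2 windows was the STAT palindrome at start site 2, a motif held by 7.01% of all 32817 windows of this length and by 1 of the 15. The FOXO core was in 0 of 15 windows against 3.16% of all, ACGTG in 1 against 16.6%, and GCGTG in 5 against 28.1%. The ROR site was in 2 windows against 14.0% of all, and the AP-1 motif in 1 against 6.75%. These matches describe letters in the windows, and binding was not measured.

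The libraries held between 34567899 and 47929948 counts in genes. The libraries numbered 3 stood apart from the others in both groups on the first principal component, which took 43.5% of the variance. The libraries numbered 1 held Xist RNA at 2219 and 1705 CPM (TMM-scaled counts-per-million of counts in genes), whereas the others held at most 0.682 CPM. RNA of Y-linked genes summed to 0.426 and 0.219 CPM in the libraries numbered 1 and to 301 to 430 CPM in the others. By these RNAs, sex differed within both groups, so the libraries numbered 1 came from other animals than the rest. Whether the rest came from separate animals is not shown. Libraries with the same number deviated together, so a fit with the number as a block is given beside the fit on group alone. With edgeR's quasi-likelihood test on group alone, 0 of 13846 tested genes (0%) passed a Benjamini-Hochberg adjusted p of 0.05, although 1130 (8.16%) had an unadjusted p under 0.05. With the block, 44 genes (0.318%) passed, limma voom called 0 and DESeq2 called 208 of 14193 (1.47%).

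The sorted cells were checked against lineage markers. All 7 CD4 T cell markers were measured, and their summed level lay at 5362 to 5890 CPM with desIgf1 and 5250 to 5662 CPM in controls. The 7 Th17 markers summed to 2129 to 2525 CPM with desIgf1 and to 1536 to 1785 CPM in controls, ranges that did not overlap. None of the Th17 markers passed edgeR's test with or without the block. Of the 7, 3 had an unadjusted p under 0.05, beside 8.16% of all tested genes. Their part in the differences below was not tested.

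RNA of other cell types was also measured, and the ranges of the summed markers overlapped between the groups for each list. The 8 B cell and plasma cell markers summed to 57.5 to 98.2 CPM with desIgf1 and 69.2 to 177 CPM in controls, and 5 of the 8 were under 1 CPM in every library. Ighm made up most of that sum. The 7 macrophage and monocyte markers summed to 151 to 178 CPM and 92.0 to 181 CPM, most of it Ctss. The 7 dendritic cell markers summed to 1.02 to 3.31 CPM and 0.745 to 2.29 CPM, with Flt3, Itgax and Zbtb46 detected in every library and Xcr1, Cd209a and Siglech at 0 counts in all. The 5 NK cell markers summed to 4.23 to 8.31 CPM and 4.13 to 6.27 CPM, with Ncr1 at 0 counts and the other 4 detected in every library. Klrk1, which activated T cells can also express, was at 0.626, 0.855 and 2.48 CPM with desIgf1 and 0.395, 0.164 and 0.659 CPM in controls. Klre1 went the other way, at 0.501, 0.380 and 0.351 CPM with desIgf1 and 1.97, 1.74 and 0.200 CPM in controls. The log2 differences of Klrk1 and Klre1 were 1.72 and -1.67, and those of Klrb1c and Eomes were 0.11 and 0.52. The 2 CD8 T cell markers summed to 4.98 to 11.0 CPM and 3.22 to 7.85 CPM, nearly all of it Cd8b1. The 6 granulocyte markers summed to 0.200 to 1.09 CPM and 0.469 to 0.831 CPM, with Elane at 0 counts and Cxcr2 detected in every library, and the 6 erythroid and platelet markers to 0.372 to 0.522 CPM and 0.229 to 0.460 CPM. Among all these markers edgeR called 0 with or without the block, and voom and DESeq2 called 0. Unadjusted p was under 0.05 for 2, among them Klrk1, beside 8.16% of all tested genes. The part of these markers in the differences below was not tested. In bulk samples, fewer cells that express a gene cannot be told apart from less RNA per cell.

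Gcnt2 was the member with the largest difference, and its groups did not overlap. Its level was 22.0, 26.8 and 28.2 CPM in desIgf1 libraries 1, 2 and 3 and 8.84, 5.23 and 8.79 CPM in the controls. Every desIgf1 library lay above every control library. The means were 25.7 ± 3.29 CPM (SD, n = 3) and 7.62 ± 2.07 CPM, a fitted log2 difference of 1.75 ± 0.23 (SE), or 3.37-fold. Within the numbered pairs the log2 difference was 1.31, 2.34 and 1.68, and without both libraries numbered 3 it was 1.79. The values rest on 223 to 1366 counts per library. Gcnt2 shares 6.84% of its exon bases with A730081D07Rik and 4.18% with Gm31683, both on the opposite strand, and A730081D07Rik was at 0.305 to 0.974 CPM over the 6 libraries.

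Gcnt1, which opens the core 2 O-glycan branch that carries sialyl Lewis x on PSGL-1, lies on the minus strand at chr19:17326141-17372844. Its level was 3.58, 6.67 and 6.37 CPM with desIgf1 and 1.73, 1.41 and 4.58 CPM in controls. The groups overlapped because control library 3 exceeded desIgf1 library 1. The fitted log2 difference was 1.11 ± 0.49 (SE), 2.16-fold, and it was positive in each pair, at 1.03, 2.21 and 0.47. Without both libraries numbered 3 it was 1.71, more than 1.5 times the value over all 6 libraries, and leaving out 1 library at a time it ran from 0.82 to 1.82.

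Within the GCNT family, Gcnt2 took most of the RNA per length. Level per length here is CPM per kilobase of annotated exon. Gcnt2 held 76.2% to 82.6% of the family's summed level per length with desIgf1 and 60.2% to 77.1% in controls. Gcnt1 held 16.5% to 23.3% and 18.5% to 38.4%. Gcnt3, Gcnt4 and Gcnt7 had 0 to 7 counts in any library and were not tested.

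Mgat5, on the plus strand at chr1:127205015-127488336, adds the branch that extends complex N-glycans. Its level was 43.2, 26.8 and 74.2 CPM with desIgf1 and 26.7, 12.6 and 63.7 CPM in controls. The libraries numbered 3 were the highest of both groups, and desIgf1 exceeded control within every pair, by log2 differences of 0.69, 1.08 and 0.22. The fitted difference was 0.49 ± 0.60 (SE) on group alone and 0.66 ± 0.17 with the number as a block. Leaving out 1 library at a time moved the group-only value between 0.01 and 1.29. Mgat5 shares 1.48% of its exon bases with Tmem163 on the opposite strand, at 1.33 to 2.09 CPM with desIgf1 and 2.95 to 4.48 CPM in controls. Mgat5 ranked number 4 of the 8 MGAT genes per length in controls, behind Mgat2, Mgat1 and Mgat4b, and Mgat5b had 0 counts in every library, where 3 counts would be 0.0626 to 0.0868 CPM.

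**Figure D1:**
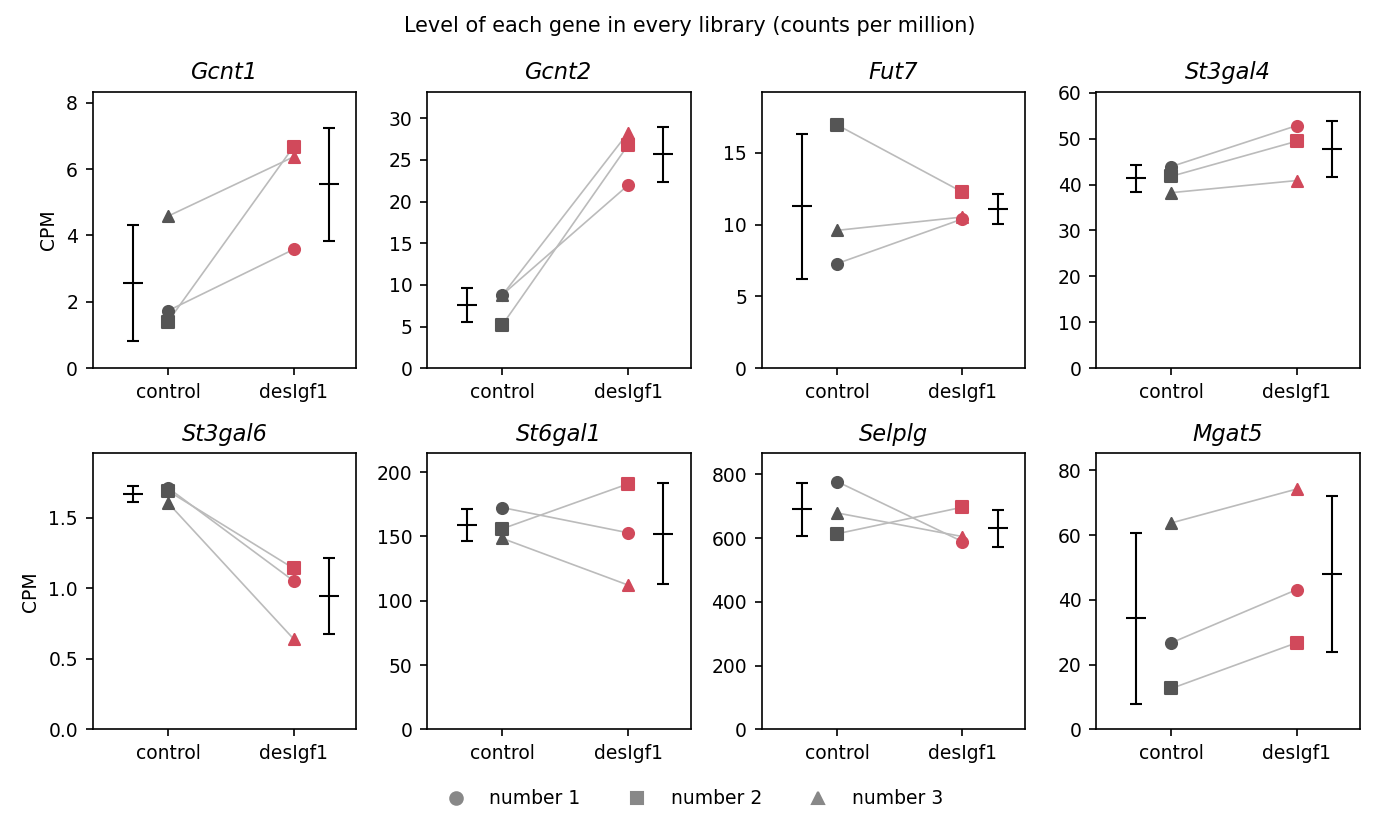
Level of each of the 8 genes in CPM (vertical axis, linear from 0) in the 3 control and 3 desIgf1 libraries, with 1 point per library and the mean and SD per group. The 3 desIgf1 libraries of Gcnt2 lie at 22.0 to 28.2 CPM, above the controls at 5.23 to 8.84 CPM.

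Fut7, the fucosyltransferase that completes sialyl Lewis x, lies on the plus strand at chr2:25423267-25426374. Its level was 10.4, 12.3 and 10.5 CPM with desIgf1 and 7.28, 16.9 and 9.59 CPM in controls. Control library 2 was the highest and control library 1 the lowest of the 6, so the controls enclosed the desIgf1 range. The log2 difference was -0.03 ± 0.30 (SE), with pairs at 0.51, -0.47 and 0.13. Per length, Fut7 stood at 4.79 ± 2.14 in controls, beside the core fucosyltransferase Fut8 at 4.83 ± 1.43 and Fut11 at 4.44 ± 0.39, and their spreads overlapped. Fut1 and Fut9 had 0 counts in every library.

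St3gal4, which caps galactose with the sialic acid that sialyl Lewis x needs, lies on the minus strand at chr9:35046576-35119268. Its level was 52.8, 49.4 and 40.9 CPM with desIgf1 and 43.9, 41.8 and 38.2 CPM in controls. The groups overlapped through library 3 of desIgf1, and each pair differed in the same direction, by 0.27, 0.24 and 0.10 on the log2 scale. The fitted log2 difference was 0.21 ± 0.13 (SE). St3gal4 shares 14.1% of its exon bases with 4930581F22Rik on the opposite strand, which was at 19.5 to 28.8 CPM with desIgf1 and 19.7 to 20.1 CPM in controls, a log2 difference of 0.26 ± 0.16 (SE).

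St3gal6, a sialyltransferase of overlapping function, lies on the minus strand at chr16:58468125-58524243. Its level was 1.05, 1.14 and 0.641 CPM with desIgf1 and 1.71, 1.69 and 1.60 CPM in controls. The groups did not overlap, with every desIgf1 library below every control. The log2 difference was -0.82 ± 0.32 (SE), from 31 to 78 counts per library, and -0.63 without both libraries numbered 3. St3gal6 shared 26.0% of its exon bases with Dcbld2 on the opposite strand, which was at 5.39 to 7.59 CPM with desIgf1 and 5.30 to 9.17 CPM in controls. If the counting did not use strand, reads of the shared bases cannot be assigned to either gene, here and for the other overlaps with genes on the opposite strand.

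St6gal1, which adds a sialic acid that can block the binding of some galectins, lies on the plus strand at chr16:23224740-23360350. Its level was 153, 191 and 112 CPM with desIgf1 and 172, 156 and 148 CPM in controls. The desIgf1 libraries were both the highest and the lowest of the 6. The log2 difference was -0.06 ± 0.18 (SE), with pairs at -0.17, 0.29 and -0.40. St6gal2 had 0 counts in every library, so St6gal1 held all counts of that family. On the opposite strand, BC106179 shares 200 bases, or 4.07%, of the exons of St6gal1.

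Selplg, the PSGL-1 scaffold that binds all 3 selectins, lies on the minus strand at chr5:113818536-113832644. Its level was 589, 697 and 605 CPM with desIgf1 and 777, 613 and 679 CPM in controls. The groups overlapped, and the log2 difference was -0.13 ± 0.12 (SE), with pairs at -0.40, 0.18 and -0.17. These values rest on 23526 to 35458 counts per library.

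**Figure D2:**
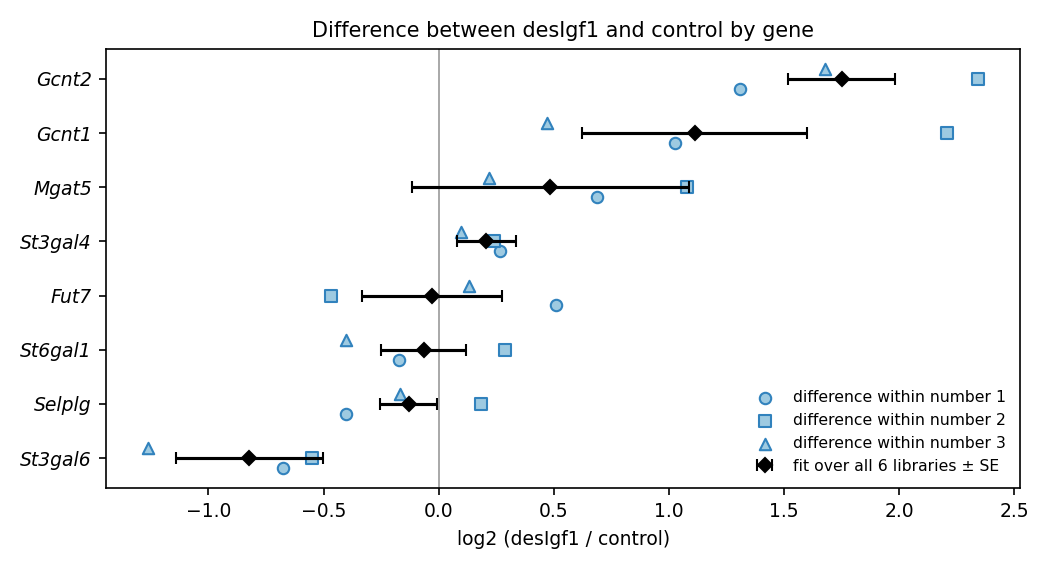
Log2 difference between desIgf1 and control (horizontal axis) for each of the 8 genes (vertical axis), with the fitted value and its standard error and the difference within each numbered pair. Gcnt2 (1.75) and Gcnt1 (1.11) lie farthest to the right and St3gal6 (-0.82) farthest to the left.

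Over the 8 genes, edgeR called 0 on group alone and 0 with the block, voom called 0, and DESeq2 called 1, Gcnt2, as higher, where it called 0.796% of all genes higher and 0.669% lower. Without both libraries numbered 3 and without the block, edgeR called 0 of the 8, beside 0.0858% of all genes. With the replicate block and the pair numbered 1, 2 or 3 left out, it called 1, 1 and 3 of the 8. The shares of all genes were 0.513%, 4.42% and 7.64%. Those fits left fewer residual degrees of freedom to measure spread than the 2 of the full blocked fit. Without the filter on low counts edgeR called 1 of the 8, beside 0.0711% of all genes. Unadjusted p was under 0.05 for 2 of the 8, Gcnt2 among the 4.75% of all genes that were higher and St3gal6 among the 3.42% that were lower. The groups did not overlap for those 2 genes, against 13.5% of all tested genes, of which 7.31% were higher and 6.18% lower, and 5 of 8 differed in the same direction in every pair, against 38.0% of all. The median log2 difference was 0.09, beside -0.01 over all genes tested. Since the genes were chosen with this comparison known, nothing is read from these counts.

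Ordered by level per length, the scaffold was far above the enzymes. In controls Selplg stood at 162 ± 19.3 CPM per kilobase, St6gal1 at 32.3 ± 2.49 and St3gal4 at 14.1 ± 0.98, and the ranges of these neighbours, and of St3gal4 and Fut7, did not overlap. Below them came Fut7, Mgat5, Gcnt2, Gcnt1 and St3gal6 (0.27 ± 0.01), and the range of each overlapped that of the next. With desIgf1 the order of means was the same, but Gcnt2 at 3.64 ± 0.47 then lay apart from Gcnt1 at 0.96 ± 0.30, and Gcnt1 apart from St3gal6 at 0.15 ± 0.04. With the longest annotated transcript as the length, Gcnt2 and Fut7 exchanged ranks in the desIgf1 group.

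**Figure D3:**
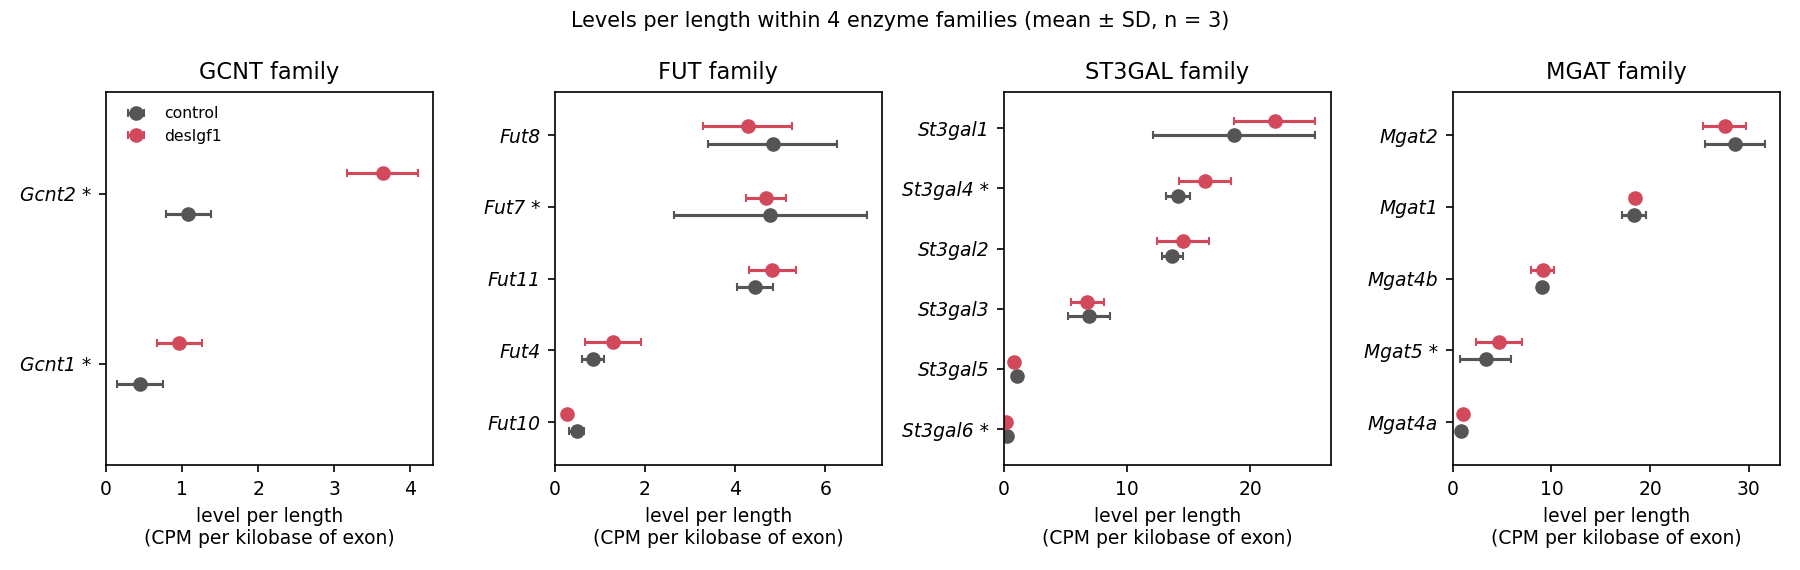
Level per length (horizontal axis) of the tested genes of the GCNT, FUT, ST3GAL and MGAT families in controls and desIgf1 libraries. Values are CPM per kilobase of exon, as mean and SD (n = 3). Mgat3, tested at no more than 19 counts in any library, is not drawn. Asterisks mark those of the 8 genes described that belong to these families. Gcnt2 leads its family, Fut7 lies beside Fut8 and Fut11, and St3gal1 at 18.7 and St3gal4 at 14.1 lead the ST3GAL family in controls.

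The other genes of the selectin and galectin glycan pathways were listed by role. Of 136 genes, 134 matched and 99 were tested. On group alone edgeR called 0 of 99 and voom 0. Unadjusted p was under 0.05 for 13, of which 8 lay above and 5 below the controls. Over all tested genes that share was 8.16%, with 4.75% higher and 3.42% lower, which also stands beside the list counts below. The blocked fit called 1 of 99, beside 0.318% of all genes. DESeq2 called 4 of 99, beside 1.47% of all, among them Cd24a as higher and Papss2 and Chst2 as lower. The median log2 difference of the 99 was 0.01.

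Sulfation genes make the sulfated forms that some selectin ligands require. Papss2, which makes the sulfate donor, was at 12.5, 14.5 and 11.0 CPM with desIgf1 and 25.3, 22.1 and 20.9 CPM in controls. Chst2, a carbohydrate sulfotransferase, was at 78.9, 48.7 and 85.0 CPM and 164, 164 and 111 CPM. Both were named for the smallest p of the list. The groups did not overlap for these 2 of 5 sulfation genes tested, beside 13.5% of all tested genes, with 6.18% lower. The edgeR adjusted p was 0.277 and 0.365 on group alone and 0.0835 and 0.166 with the replicate block, while DESeq2 gave 0.000352 and 0.00482. Tpst2, the most abundant of the list per length, had a log2 difference of 0.18, and Tpst1 and Papss1 had -0.002 and 0.09.

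Among the other selectin ligand scaffolds, Cd24a, a small mucin-like protein, was at 205, 188 and 197 CPM with desIgf1 and 134, 112 and 103 CPM in controls. Its log2 difference was 0.76 ± 0.12 (SE), with an edgeR adjusted p of 0.170, or 0.0530 with the replicate block, and 9.10e-05 in DESeq2. Cd44, a hyaluronan receptor that can carry E-selectin ligands, was at 194, 210 and 264 CPM and 98.1, 106 and 204 CPM. Control library 3 exceeded a desIgf1 library. The edgeR adjusted p for Cd44 was 0.595 on group alone and 0.119 with the replicate block, and DESeq2 gave 0.290. Spn, the most abundant scaffold of the list per length, differed by -0.22 ± 0.14 on the log2 scale.

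**Figure D4:**
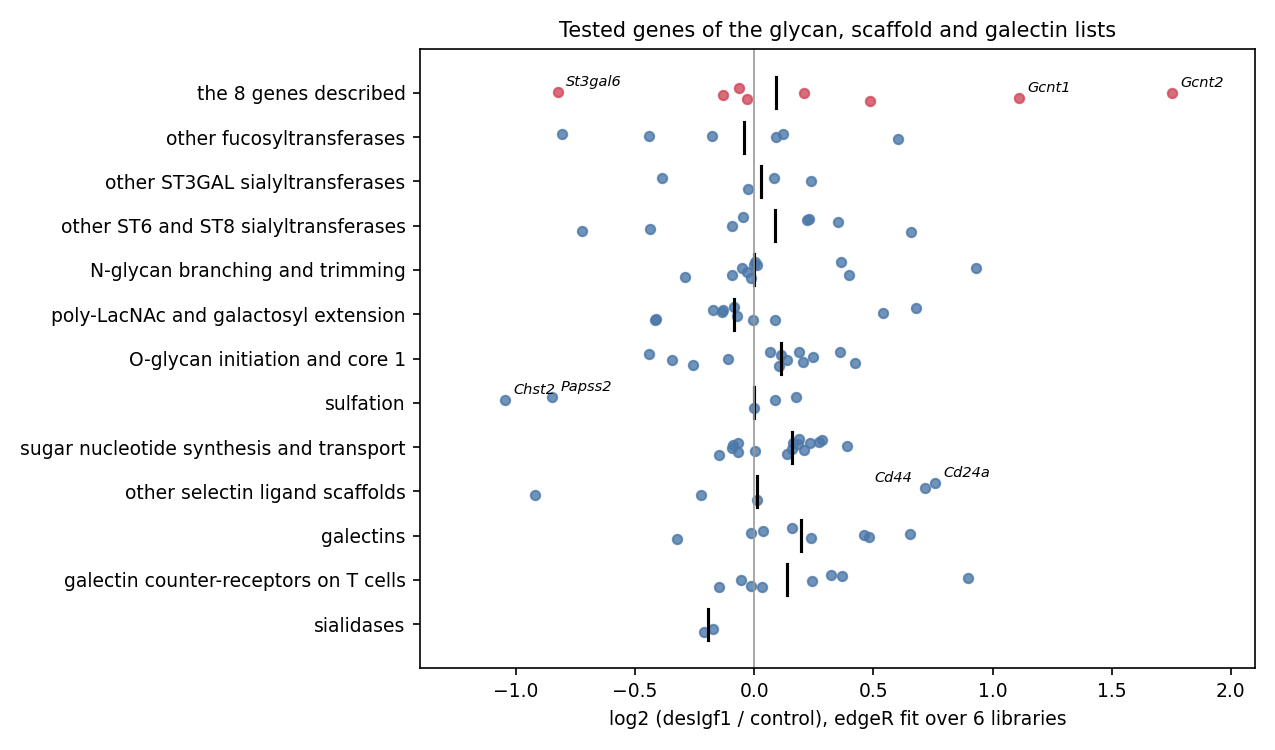
Log2 difference between desIgf1 and control (horizontal axis) of the tested genes in each list shown (vertical axis), with black bars at list medians. Outside the 8 genes, the labelled points farthest to the left are Chst2 and Papss2, at -1.05 and -0.85. Madcam1, a scaffold gene at 8 to 49 counts per library, lies between them at -0.92 without a label.

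The lists of N-glycan branching and trimming and of O-glycan initiation and core 1 gave 0 calls in edgeR with or without the block. Of 11 N-glycan branching and trimming genes tested, 2 had an unadjusted p under 0.05, Man2a1 and Mgat4a. Man2a1, which trims mannose before complex branches are added, was at 254, 298 and 238 CPM with desIgf1 and 185, 213 and 201 CPM in controls, with no overlap. Of 13 O-glycan initiation and core 1 genes, 1 had an unadjusted p under 0.05, Galnt7, at 45.6 to 55.4 CPM and 59.9 to 66.7 CPM. C1galt1, which makes the core 1 chain that Gcnt1 branches, was at 25.3 to 36.8 CPM and 19.1 to 28.2 CPM.

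Galectin genes also gave 0 calls among the 8 tested in edgeR with or without the block, and DESeq2 called 0. Lgals1, the most abundant per length, was at 626 to 854 CPM with desIgf1 and 610 to 688 CPM in controls. Lgals4 had the smallest p of the list, at 29.3 to 44.5 CPM and 22.4 to 30.1 CPM, with 1 of 8 at an unadjusted p under 0.05. Of the galectin counter-receptors, Ptprc, the phosphatase CD45, was at 1571 to 1702 CPM and 1150 to 1493 CPM. Its edgeR adjusted p was 0.561 on group alone and 0.309 with the replicate block.

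**Figure D5:**
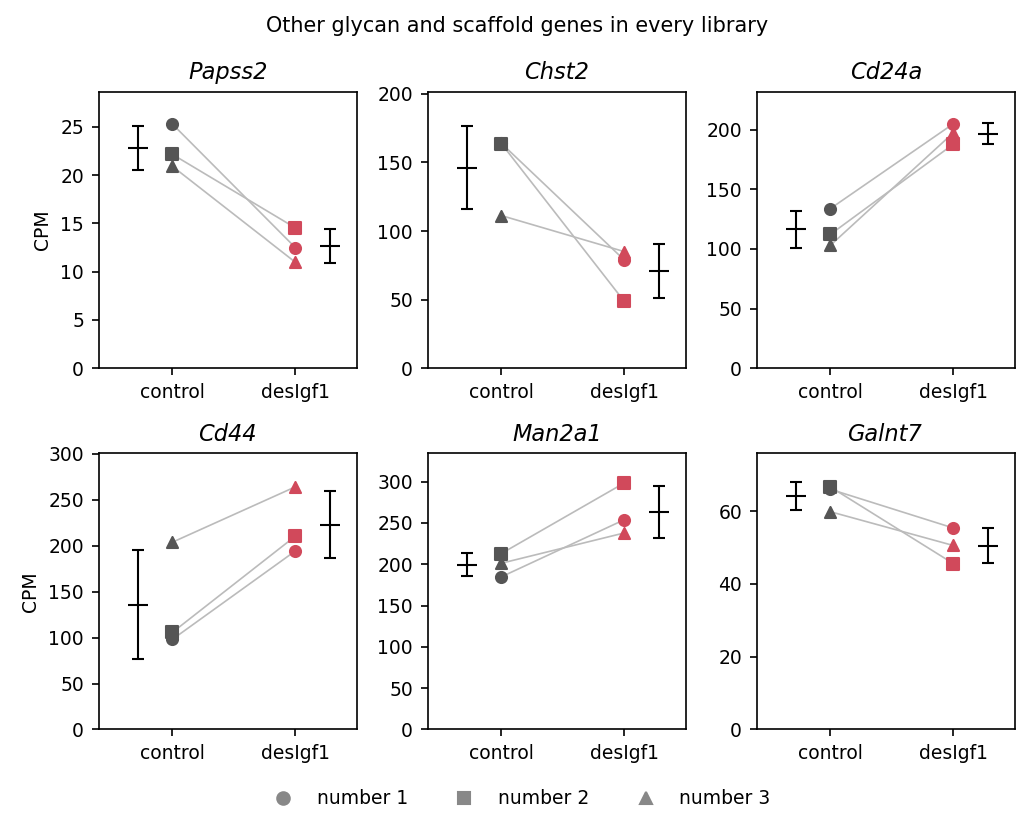
Level in CPM (vertical axis, linear from 0) of Papss2, Chst2, Cd24a, Cd44, Man2a1 and Galnt7 in the 3 control and 3 desIgf1 libraries, with 1 point per library and the mean and SD per group. The Cd44 groups overlap through control library 3 at 204 CPM, and the groups of the other 5 genes do not overlap.

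Genes whose log2 CPM followed the 2 members with the largest differences were sought among 11727 genes over the 6 libraries, which share depth and the group difference. For Gcnt2 these were Slfn8 (Pearson r 0.996), Irf8 (0.984) and Gm8399 (0.984), and 120 genes had r over 0.9. Irf8, a transcription factor of the interferon regulatory factor family, was at 47.5, 55.6 and 51.7 CPM with desIgf1 and 33.1, 25.8 and 36.3 CPM in controls. For Gcnt1 they were Mif4gd (0.999), Hcfc1r1 (0.995) and Cldn12 (0.995), with 298 genes over 0.9. The correlations are descriptions over 6 points.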

How the data were processed

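Per the labels, poly(A) RNA of sorted cells was made into stranded libraries (TruSeq Stranded mRNA). The authors deposited raw read counts per Ensembl gene for each library, whose values are whole numbers that were not normalized. Per the submitters' processing notes, the tools included HTSeq 0.7.2 and STAR 2.5.3, with R 3.4.3, SAMtools 0.1.18, Trim Galore 0.4.5 and DESeq2 1.18.1, in no stated role, and the build was GRCm38/mm10. The annotation release was not given in the sources used here. The names of the deposited files carry the word reverse, which is also an HTSeq strand setting, but no label or header states the setting used. Rows that name no gene were left out: 13.5% to 15.7% of uniquely aligned reads fell in no feature, 0.712% to 0.761% were ambiguous, and 46.4% to 48.7% of alignments were not unique.

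Of 39179 gene identifiers, 37693 matched GENCODE M21, which gave names, positions and exon lengths. Genes were filtered with filterByExpr (minimum count 10), scaled by TMM and tested with edgeR 4.0.16 (quasi-likelihood, robust, group only) in R 4.3.3, with Benjamini-Hochberg adjustment over 13846 genes. CPM are TMM-scaled, and level per length is CPM divided by merged exon length in kilobases. SE is the absolute log2 difference over the square root of F. DESeq2 1.42.0, limma 3.58.1 (voom), RLE scaling, no filter, the replicate number as a block and each library left out were alternatives. Replicate numbers come from the titles. Deviations from group means correlated at 0.59, 0.32 and 0.55 between same-numbered libraries over 13846 genes, so the numbers were treated as pairs, a pairing found in the data. No 2 libraries of a group agreed within sampling noise. The members and lists were chosen with earlier results of these data known. Named genes were all 8 members, every other listed gene past an adjusted p of 0.05 with or without the block, otherwise up to 2 per list with the smallest p at a mean of at least 1 CPM, the most abundant gene per length of a list, and the 3 genes most like each of 2 members. Family genes, markers, opposite-strand genes, Tpst1, Papss1 and Madcam1 fell outside that rule and were named after their values were seen. Some genes past a threshold or on a list are not reported here.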

Additional observations from a re-analysis of the deposited data

How the results depend on the processing

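The count of genes called moved with the setting. Against 0 of 13846 on group alone with edgeR, DESeq2 called 208, edgeR without the filter on low counts called 16 of 22504 (0.0711%), the replicate block called 44, and leaving out both libraries numbered 3 without the block, a setting chosen after seeing the data, called 12 of 13987 (0.0858%). With the replicate block and 1 pair left out, calls without numbers 1, 2 and 3 were 72 of 14024, 620 of 14019 and 1069 of 13987 over all genes (0.513%, 4.42% and 7.64%), 1, 7 and 10 over the other pathway genes, and 1, 1 and 3 over the 8 members. The full blocked fit left 2 residual degrees of freedom to measure spread, against 4 on group alone, and fewer once a pair was left out. The rise in calls therefore cannot be read as stronger evidence. Without number 1 or number 2 the member called was Gcnt2, and without number 3 they were Gcnt1, Gcnt2 and Mgat5. DESeq2 called 4 other pathway genes and 1 member, and the block called 1 other pathway gene. The fit without the filter called 1 member, Gcnt2. Since the members were chosen with this comparison known, nothing is read from the calls among them. RLE scaling, voom and leaving out 1 library without the block kept 0 calls in all 3 counts. The median log2 difference of the members, 0.09, was 0.25 with the replicate block and without number 2, and ran from 0.02 to 0.25 over the fits that left out libraries. Over 15 alternatives 5 members kept one sign, and Fut7, Selplg and St6gal1 took both. Precision is limited by 3 libraries per group and, for St3gal6, Gcnt1 and the GCNT genes near 0, by low counts. The cause of these changes was not tested.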

Other observations

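Among genes of sugar nucleotide synthesis and transport, which supply donors to the glycosyltransferases, 16 of 17 were tested, edgeR called 0 with or without the block, and DESeq2 called 0. The median log2 difference was 0.16, against -0.01 for the median of all genes tested. An unadjusted p under 0.05 was found for 1 gene, beside 8.16% of all tested genes. Uap1, which makes UDP-N-acetylglucosamine, was at 78.2 to 80.7 CPM with desIgf1 and 57.6 to 75.6 CPM in controls. Gnpnat1, an earlier step of the same route, was at 14.2 to 19.0 CPM and 12.1 to 13.4 CPM. For neither gene did the groups overlap. Both were named for the smallest p of the list, in which 4 of 16 tested genes did not overlap, beside 13.5% of all tested genes.

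BC106179, a gene on the strand opposite St6gal1 that shares 200 exon bases with it, was at 2.03, 1.43 and 1.47 CPM with desIgf1 and 7.76, 3.05 and 5.79 CPM in controls. Its log2 difference was -1.75 ± 0.38 (SE) with an adjusted p of 0.327 in edgeR on group alone, 0.0775 with the replicate block and 0.000676 in DESeq2. The gene was named after its values were seen.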
